A study of Homo sapiens with 4 samples.

Results

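The adenylate kinases are a family of enzymes that move a phosphate group between adenine nucleotides, and 8 of their genes, AK1, AK3, AK4, AK5, AK6, AK7, AK8 and AK9, were followed among the 36359 genes counted in ACHN, a cell line long established from a human kidney carcinoma. The genes were picked by name from the count table, and the family was proposed with the changes of its genes in these libraries already known, AK5 being among the largest decreases. For this reason the differences between the groups are given for the family as a description, with no p-value for a member. RNA was sequenced after the cells had been transfected, using Lipofectamine, with siRNA against PRR11 (siPRR11, 2 libraries) or control siRNA (siNC, 2 libraries). The study's methods list 2 siRNAs against PRR11, and the labels do not state which was used for which library. All 4 libraries come from the same line, and the labels do not state whether the libraries of a group came from separate cultures, so their spread may be technical.

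Adenylate kinases catalyse the reversible transfer of a phosphate from ATP to AMP, which gives ADP, and so keep ATP, ADP and AMP close to equilibrium and relay energy-rich phosphate through the cell. AMP that builds up when ATP is used is the signal that switches on the AMP-activated protein kinase. The isoforms differ in where they work. AK1 and AK5 are cytosolic and AK5 is known from the brain, AK3 and AK4 lie in the mitochondrial matrix, AK6 is mainly nuclear, AK7 and AK8 are known from tissues with motile cilia and flagella, and AK9 is a large protein with several kinase domains.

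What the family shares is the phosphate-binding loop (P-loop or Walker A motif), in which a glycine, 4 residues of any kind, a glycine and a lysine wrap around the phosphates of the bound nucleotide. The coding DNA of this loop is shown for each gene because every member carries it, although the pattern alone does not define the family. A further reason is that AK5, the gene that differed most between the groups, carries the loop at both of its kinase domains. The sequences were read from GRCh38 in the canonical coding sequence of GENCODE release 44, written 5′ to 3′ on the coding strand, with the codons of the fixed glycine and of the closing glycine and lysine in capitals.
AK1: GGTgggcctggctcaGGGAAG
AK3: GGGgccccgggctcgGGCAAG
AK4: GGGccgcccggctcgGGCAAG
AK5, first loop: GGTggtccaggaagtGGAAAG
AK5, second loop: GGTggtcctggctctGGCAAA
AK6: GGTacaccaggggttGGAAAA
AK7: GGTccccctgctgtgGGAAAA
AK8: GGTccacccgcctcaGGGAAA
AK9: GGGaaaccaggtgttGGGAAA

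In AK5, on the plus strand, the first loop covers codons 139 to 145 of 562 at chr1:77293960-77297578 and the second covers codons 383 to 389 at chr1:77486352-77518583, and each is split between neighbouring exons by an intron. The loops of AK1 (minus strand, codons 15 to 21 of 194, chr9:127872834-127873026), AK6 (minus strand, codons 10 to 16 of 172, chr5:69366576-69369463) and AK9 (minus strand, codons 37 to 43 of 1911, chr6:109674250-109675637) are also split by an intron. Those of AK3 (minus strand, codons 14 to 20 of 227, chr9:4741028-4741048), AK4 (plus strand, codons 12 to 18 of 223, chr1:65148441-65148461), AK7 (plus strand, codons 374 to 380 of 723, chr14:96456368-96456388) and AK8 (minus strand, codons 64 to 70 of 479, chr9:132866913-132866933) lie within an exon. AK3 and AK4 share the mitochondrial matrix, and 64.8% of 704 aligned positions of their coding sequences were identical. AK5 was not alone in holding the pattern more than once. It occurred again in AK8, at codons 275 to 281 and apart from the first, and at 4 places in AK9 in all. In AK6 it also occurred once more, but there it overlapped the first. For AK6, AK8 and AK9 only the first match is printed above.

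Libraries held between 59003839 and 92612749 counted reads, and counts were scaled to CPM (counts at a common library size) by edgeR's TMM method, whose factors lay between 0.983 and 1.018. Of all genes, 21630 had enough counts to be tested, and all 8 adenylate kinases were among them, with between 32 and 8488 counts per library. PRR11 itself fell, from 40.8 ± 0.636 CPM in siNC to 14.7 ± 0.911 CPM in siPRR11 (SD, n = 2 each). Its log2 fold change was -1.48 (standard error, SE, 0.0909; adjusted p = 3.35e-06 by edgeR's quasi-likelihood test, Benjamini-Hochberg method). Markers of renal tubule epithelium were expressed, with PAX8 at 43.6 RPKM and KRT18 at 73.2 RPKM in siNC cells on average, while all 4 leukocyte and all 3 endothelial markers stayed below 1 RPKM in every library. In RNA from bulk cells, fewer cells with a transcript and less of the transcript per cell cannot be told apart.

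The levels of the family spanned a wide range in control cells. Levels of different genes were compared as RPKM, the reads scaled to exonic length and to the library's counted reads, as the authors deposited them. AK6 was the most abundant at 35.8 ± 0.103 RPKM (SD, n = 2) in siNC cells, followed by AK1 at 17.9 ± 2.09 RPKM, AK3 at 8.08 ± 0.428 RPKM and AK4 at 4.25 ± 0.295 RPKM. AK5 at 2.61 ± 0.58 RPKM and AK7 at 1.34 ± 0.27 RPKM were intermediate, and AK9 at 0.275 ± 0.0293 RPKM and AK8 at 0.189 ± 0.0308 RPKM (SD, n = 2 each) were lowest. No neighbours in this order overlapped between the siNC libraries, and the narrowest step was from AK9 to AK8, by 1.45-fold.

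The order was partly different in siPRR11 cells. AK6, AK1, AK3 and AK4 remained the 4 most abundant members in both siPRR11 libraries, but AK7, at 0.912 ± 0.00157 RPKM, stood above AK5, at 0.645 ± 0.0384 RPKM (SD, n = 2 each), in both. AK9 and AK8, at 0.186 and 0.184 RPKM on average, overlapped and could not be ordered. Summed over the 8 genes, the level was 71.6 and 69.1 RPKM in siNC and 76.9 and 76.2 RPKM in siPRR11. AK6 and AK1 supplied between 75.5% and 80.8% of this sum in each library. AK5 supplied 3.07% and 4.37% of it in the siNC libraries and 0.803% and 0.882% in the siPRR11 libraries.

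**Figure D1:**
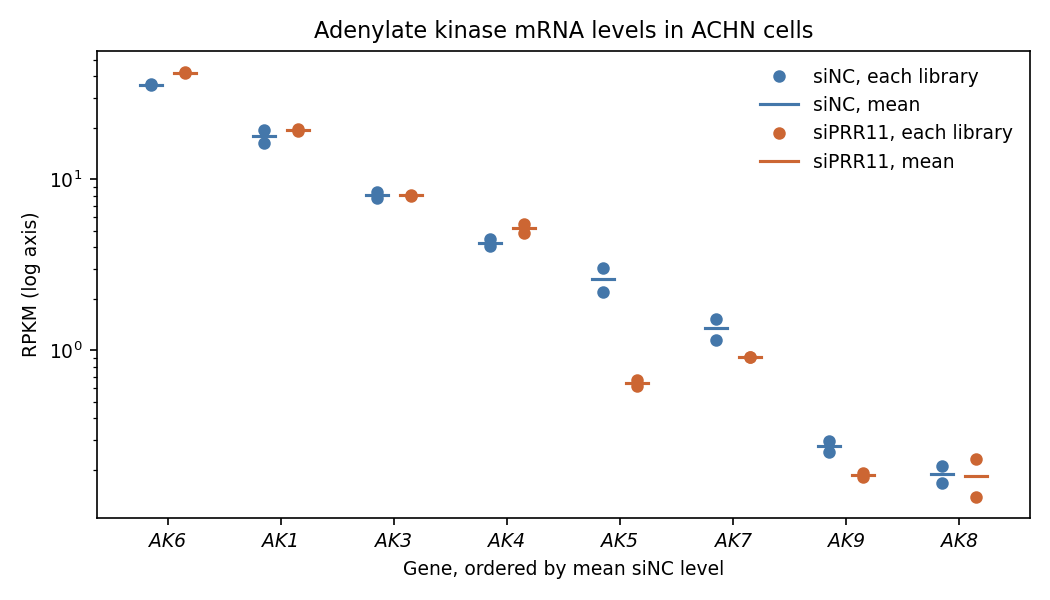
Level of each adenylate kinase mRNA in RPKM on a log axis, with a point for each siNC and siPRR11 library and a line at the mean of the 2 libraries of a group. The points of AK5 separate most, at 2.20 and 3.02 RPKM in siNC and 0.618 and 0.672 RPKM in siPRR11, while those of AK1, AK3 and AK8 overlap between the groups.

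Between the groups, 3 of the 8 members were lower in siPRR11 cells at an adjusted p-value under 0.05 (AK5, AK7 and AK9) and none was higher. Among all genes tested, 16.7% passed this threshold, 9.14% lower and 7.61% higher, and since the family was proposed with this contrast in view nothing is read from its count. The median log2 fold change of the 8 members was -0.06 and that of all genes tested was 0.00. For AK5, AK7 and AK9 both siPRR11 values were lower than both siNC values, and for AK4 and AK6 both were higher. The groups overlapped for AK1, AK3 and AK8. Among all genes tested, 29.3% had both siPRR11 libraries below both siNC libraries and 29.1% had them above.

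**Figure D2:**
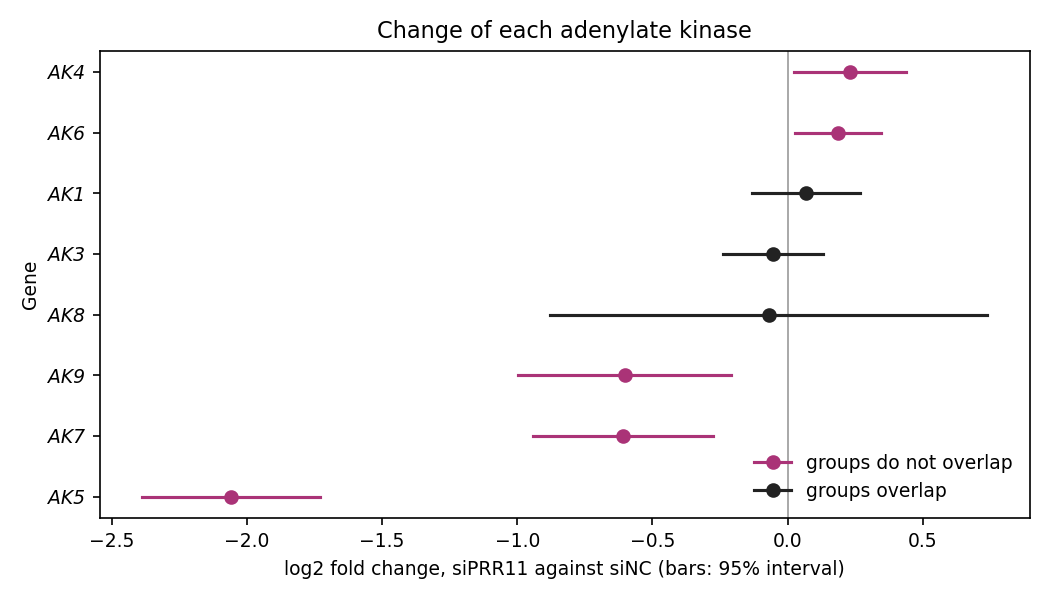
Log2 fold change of each adenylate kinase in siPRR11 against siNC cells, with bars for the 95% interval from edgeR's quasi-likelihood fit (2 libraries per group, not adjusted for the number of genes). AK5 stands apart at -2.06, AK7 and AK9 lie near -0.61 and -0.60, and the other 5 lie between -0.07 and 0.23.

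Among the cytosolic isoforms, AK5 differed most. AK5, on chromosome 1 (GRCh38 here and for the other genes) from 77282051 to 77559969 on the plus strand, was at 15.5 and 21.2 CPM in the siNC libraries and at 4.20 and 4.58 CPM in the siPRR11 libraries. Both siPRR11 values were far below both siNC values, although the siNC libraries also differed from each other. The mean was 18.4 ± 4.1 CPM in siNC and 4.39 ± 0.271 CPM in siPRR11 (SD, n = 2 each), which left 23.9% of the siNC level. On the log2 scale this was a fold change of -2.06 (SE 0.15), and 28 of the 21630 genes tested had a lower one. It was -1.82 without siNC library 2 and -2.28 without siNC library 1, and it was below 0 under every alternative tried. Since AK5 was known to be among the largest decreases in these libraries when the family was proposed, its rank and its stability describe the libraries and are not independent evidence. On the log2(RPKM + 1) scale the difference was -1.12, since a pseudocount of 1 weighs on a gene at this level. No other gene of the table shares exonic bases with AK5. Of 4 neuronal markers, 3 were below 1 RPKM in every library, with RBFOX3, a marker of mature neurons, between 0.0134 and 0.0252 RPKM. The fourth, MAP2, was at 1.16 and 1.23 RPKM in siNC and at 0.688 and 0.651 RPKM in siPRR11. The markers did not all go the same way. On average SYP was lower in siPRR11, at 0.397 RPKM against 0.485 in siNC. SNAP25 was higher, at 0.515 against 0.467 RPKM, and so was RBFOX3, at 0.0198 against 0.0170 RPKM. The summed level of the neuronal markers was 2.03 and 2.29 RPKM in siNC and 1.42 and 1.78 RPKM in siPRR11, and its part in the difference of AK5 was not tested.

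AK1, the major cytosolic isoform of muscle and red cells, lies on chromosome 9 from 127866480 to 127877743 on the minus strand. Its level was 52.5 and 44.5 CPM in siNC and 51.8 and 49.99 CPM in siPRR11. Both siPRR11 values thus lay between the siNC values. The log2 fold change was 0.07 (95% interval from -0.13 to 0.27), and it was -0.05 without siNC library 2. Per kilobase of exon, AK5 stood at 11.4% and 18.4% of the AK1 level in the siNC libraries and at 3.13% and 3.53% in the siPRR11 libraries. Of the exonic bases of AK1, 28.5% also belong to RP11-203J24.9, which is read from the same strand. It was at 48.3 and 50.1 CPM on average in siNC and siPRR11, close to AK1 itself, and reads in the shared bases cannot be told apart.

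The mitochondrial isoforms differed little between the groups. AK3, the GTP-using adenylate kinase of the matrix, on chromosome 9 from 4709559 to 4742043 on the minus strand, was at 38.2 and 35.5 CPM in siNC and at 35.2 and 35.8 CPM in siPRR11. These values overlapped, and the log2 fold change was -0.05 (95% interval from -0.24 to 0.13). AK4, which has little kinase activity of its own and is known as a gene induced in hypoxia, lies on chromosome 1 from 65147549 to 65232145 on the plus strand. It was at 31.1 and 34.4 CPM in siNC and at 35.95 and 40.9 CPM in siPRR11. Both siPRR11 values were above both siNC values. The log2 fold change was 0.23 (SE 0.0948, 95% interval from 0.02 to 0.44), which did not pass the threshold after adjustment over all genes. It passed without siNC library 2, at 0.30.

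AK4 shares its sequence with processed pseudogenes, so that reads could be split between them. AK4P1, on chromosome 17 from 31345521 to 31346187, was identical to the AK4 transcript at 99.7% of 667 aligned bases, and AK4P3, on chromosome 12 from 31615771 to 31616439, at 99.3% of 669. The P-loop codons are the same in all 3, as the lines below show, and this is why they are printed again here. They lie at chr17:31345552-31345572 on the plus strand in AK4P1 and at chr12:31616386-31616406 on the minus strand in AK4P3.
AK4P1: GGGccgcccggctcgGGCAAG
AK4P3: GGGccgcccggctcgGGCAAG

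AK4P1 had 83 and 77 counts in siNC and 119 and 141 in siPRR11, and AK4P3 had 15 and 7 counts in siNC and 25 and 35 in siPRR11. As counts these were few beside the 2543 and 1993 of AK4 in siNC and its 3389 and 3500 in siPRR11. Per exonic length the gap was smaller, since the pseudogenes are much shorter. On average AK4P1 was at 1.73 RPKM in siNC and 2.22 RPKM in siPRR11, and AK4P3 at 0.224 and 0.512 RPKM. AK4 was at 4.25 and 5.15 RPKM. AK4P1 stood at 0.32 on the log2 scale (adjusted p = 0.42) and AK4P3 at 1.10 (adjusted p = 0.161, both by edgeR's quasi-likelihood test), and neither passed the threshold. The other pseudogenes of AK3 and AK4 in the table, AK3P2, AK3P3, AK3P5, AK4P4 and AK4P6, had too few counts to be tested.

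AK6, an adenylate kinase of the nucleus with a role in ribosome assembly, lies on chromosome 5 from 69350984 to 69370013 on the minus strand. Its level was 78.4 and 78.8 CPM in siNC and 90.0 and 88.9 CPM in siPRR11. The groups did not overlap and the libraries of each group lay close together. The log2 fold change was 0.19 (SE 0.0728, 95% interval from 0.03 to 0.35), which did not pass the threshold after adjustment over all genes. TAF9, a subunit of the general transcription factor TFIID, shares 24.5% of the exonic bases of AK6, with both genes read from the minus strand. TAF9 rose from 80.4 to 95.5 CPM on average, by a log2 fold change of 0.25 (SE 0.0738, adjusted p = 0.0391 by edgeR's quasi-likelihood test). The values of AK6 and TAF9 were thus close in level and in direction, and reads in their shared bases cannot be told apart. RAD17, on the opposite strand, shares 9.71% of them, and its log2 fold change was 0.13 (adjusted p = 0.28 by edgeR's quasi-likelihood test).

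AK7, known from the axoneme of motile cilia and sperm, lies on chromosome 14 from 96392111 to 96489427 on the plus strand. It was at 7.78 and 5.85 CPM in siNC and at 4.49 CPM in both siPRR11 libraries. Both siNC values were higher than both siPRR11 values, but the siNC libraries stood farther apart from each other than the lower of them stood from siPRR11. The log2 fold change was -0.61 (SE 0.152), and the siPRR11 mean was 65.9% of the siNC mean. It was -0.38 and no longer past the threshold without siNC library 1, and it was -0.29 with limma on log2(RPKM + 1) and -0.50 with limma on log2(RPKM + 0.1), also short of the threshold.

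AK8, another isoform of ciliated tissues, lies on chromosome 9 from 132725578 to 132878777 on the minus strand and had the fewest counts of the family, with 38 and 34 counts in siNC and 58 and 32 counts in siPRR11. Scaled to library size these were 0.465 and 0.586 CPM in siNC and 0.615 and 0.374 CPM in siPRR11. The siPRR11 values lay on both sides of the siNC values. The log2 fold change of -0.07 had a 95% interval from -0.88 to 0.74, the widest of the family. SPACA9, on the opposite strand, shares 9.70% of the exonic bases of AK8, and its log2 fold change was -0.11 (adjusted p = 0.787, edgeR).

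AK9, the member with the longest coding sequence, lies on chromosome 6 from 109492856 to 109691217 on the minus strand. It had 213 and 176 counts in siNC and 179 and 154 counts in siPRR11, which gave 2.61 and 3.04 CPM in siNC and 1.90 and 1.80 CPM in siPRR11. The groups did not overlap, and the siPRR11 mean was 65.6% of the siNC mean. Its log2 fold change was -0.60 (SE 0.18, 95% interval from -0.997 to -0.21). This call was lost in several of the alternatives. It did not pass with DESeq2, where the log2 fold change was also -0.60, nor without siNC library 2 (-0.50), siPRR11 library 1 (-0.64) or siPRR11 library 2 (-0.57), and limma gave -0.10 on log2(RPKM + 1) and -0.39 on log2(RPKM + 0.1) without passing. RP5-919F19.5, on the opposite strand, shares 1.23% of the exonic bases of AK9 and had too few counts to be tested.

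**Figure D3:**
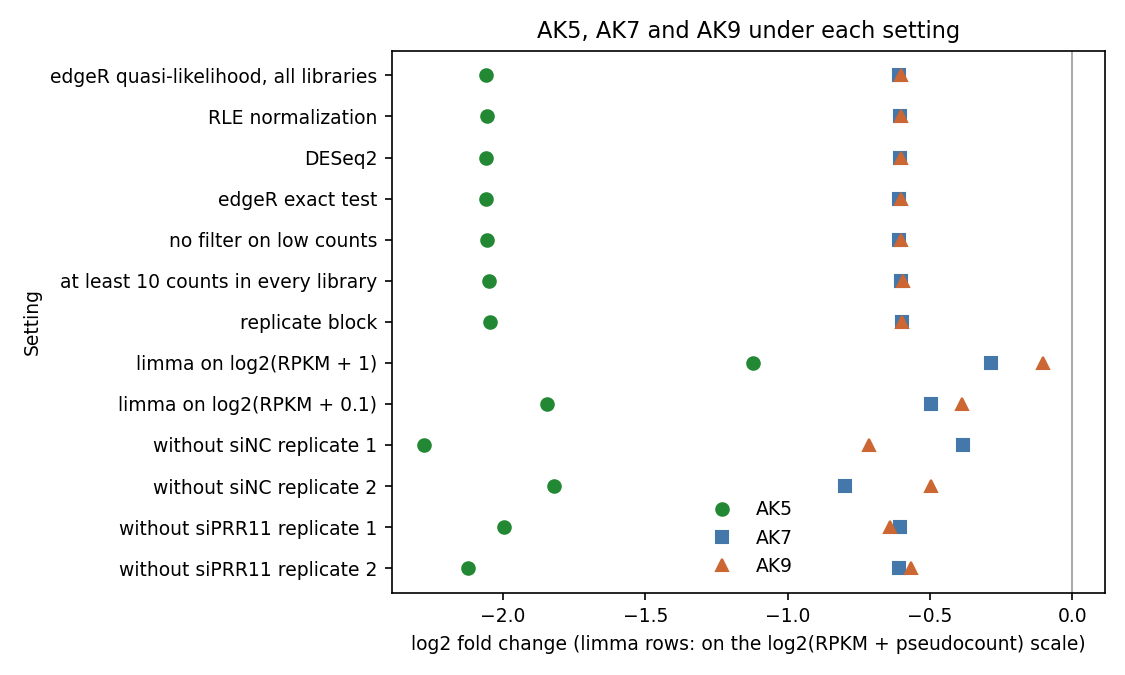
Log2 fold change of AK5, AK7 and AK9 in siPRR11 against siNC cells under each way of processing the counts, with edgeR's quasi-likelihood fit of all libraries in the first line. AK5 stays between -2.28 and -1.12, AK7 between -0.80 and -0.29 and AK9 between -0.72 and -0.10, all below 0 throughout.

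The genes next to AK5 on chromosome 1 had values near 0. PIGK, a subunit of the enzyme that attaches proteins to a lipid anchor, lies 62.6 kb before AK5 and was at 26.2 and 26.5 CPM on average in siNC and siPRR11, a log2 fold change of 0.02 (adjusted p = 0.925). ZZZ3, a zinc finger protein of a chromatin complex, lies 2.4 kb beyond the end of AK5 and stood at -0.15 (adjusted p = 0.379, both by edgeR's quasi-likelihood test). For both genes the groups overlapped.

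The genes whose levels followed AK5 most closely over the 4 libraries were sought by the root mean square difference of their log2 CPM values, each centred on its own mean. The 5 closest were BEAN1-AS1 (0.138), PAX9 (0.151), RP11-203J24.8 (0.155), COL25A1 (0.158) and KIAA1644 (0.194). Except for KIAA1644, which was at 38.4 and 45.3 CPM in siNC and 13.0 and 12.6 CPM in siPRR11, all of them lay below 1.35 CPM in every library. With 4 libraries that fall into 2 groups, this likeness is a decrease of similar size with the siNC libraries in the same order.

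Genes that act beside the adenylate kinases on adenine nucleotides, or that respond to AMP, were listed by their roles, together with genes of motile cilia. Of 69 genes listed, 59 could be tested, and 5 rose and 10 fell past an adjusted p-value of 0.05 (edgeR's quasi-likelihood test), which is 25.4% of them against 16.7% of all genes tested. Their median log2 fold change was -0.04. The count and its place beside all genes depended on single libraries and on the test. Without siPRR11 library 1, 8.47% of the related genes were called (5 genes) against 9.68% of all genes, and without siPRR11 library 2, 13.6% (8 genes) against 10.6%. Limma on log2(RPKM + 0.1) called 6.78% of them against 8.68% of all genes, and limma on log2(RPKM + 1) called 10.2% against 8.21%. Only NT5E, PRKAG2 and SLC25A25 were called under all 12 alternatives.

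The largest difference was in the list of AMP deaminases and nucleotidases. NT5E (CD73), the cell-surface enzyme that turns AMP into adenosine, was at 10.4 and 15.3 CPM in siNC and at 4.38 and 4.16 CPM in siPRR11. It fell by 1.58 on the log2 scale (SE 0.166, adjusted p = 0.000118 by edgeR's quasi-likelihood test), and the siNC libraries stood in the same order as for AK5. It was the only gene past the threshold of the 9 tested in this list, which is 11.1% against 16.7% of all genes tested. NT5C3B, the gene of this list with the highest level per exonic length, stood at -0.21 on the log2 scale (adjusted p = 0.0913, edgeR). NT5E, like AK5, is in a gene list that the study drew from these libraries, so its direction is not independent evidence.

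Among the genes of AMP supply, the paralogs of adenylosuccinate synthase, which makes the precursor of AMP, moved in opposite directions. ADSS (now ADSS2) fell from 71.1 ± 1.49 to 58.0 ± 2.19 CPM (SD, n = 2 each), or by 0.29 on the log2 scale, while the much less abundant ADSSL1 (now ADSS1) rose, from 5.30 ± 0.254 to 7.46 ± 0.313 CPM (SD, n = 2 each), its log2 fold change being 0.49. ADSS was called under 8 and ADSSL1 under 9 of the 12 alternatives, and each kept its direction in all of them. Neither was called with limma on log2(RPKM + 1) or log2(RPKM + 0.1), or without siPRR11 library 1. Adenosine kinase, ADK, the highest of this list per length, had a log2 fold change of -0.12 and did not pass. Of the genes of adenosine removal, 2 of 3 tested rose, where 7.61% of all genes tested rose past the threshold. These were PNP, which splits inosine and guanosine, by 0.41 and ADAL, an adenosine deaminase-like enzyme, by 0.34. ADAL did not pass with limma on log2(RPKM + 1) or log2(RPKM + 0.1). In all, ADAL was called under 7 and PNP under 11 of the 12 alternatives. The other losses came when single libraries were left out.

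The AMP-activated protein kinase has a catalytic, a scaffold and an AMP-binding γ subunit, and genes of the γ subunit were among those that fell. PRKAG2 went from 89.6 ± 4.43 to 65.4 ± 3.53 CPM (SD, n = 2 each), which is -0.45 on the log2 scale (SE 0.0794, adjusted p = 0.00252 by edgeR's quasi-likelihood test). PRKAG1 had a log2 fold change of -0.26, and CAMKK2, a calcium-dependent kinase that activates the enzyme, one of -0.35. The catalytic subunits PRKAA1 and PRKAA2, at 0.09 and 0.20, did not pass, nor did STK11 (LKB1) at 0.22 or CAB39, the highest of this list per length, at 0.01. In all, 3 of 10 genes tested fell and none rose, where 9.14% of all genes tested fell. PRKAG1 was called under 7 and CAMKK2 under 9 of the 12 alternatives, and neither was called without siPRR11 library 1.

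Of 7 adenine nucleotide carriers of the mitochondrial inner membrane that were tested, SLC25A25, a calcium-regulated carrier of ATP-magnesium and phosphate, rose from 7.72 ± 0.0164 CPM in siNC to 14.5 ± 0.943 CPM in siPRR11 (SD, n = 2 each), or by 0.91 on the log2 scale (adjusted p = 0.000247 by edgeR's quasi-likelihood test). Its paralogs SLC25A24 and SLC25A23 fell, with log2 fold changes of -0.45 and -0.31. The genes past the threshold were 42.9% of the 7 tested, against 16.7% of all genes tested. SLC25A24 was called under 9 and SLC25A23 under 8 of the 12 alternatives. Neither was called with limma on log2(RPKM + 1) or log2(RPKM + 0.1), or without siPRR11 library 1. The exchangers of ATP and ADP, SLC25A4, SLC25A5 and SLC25A6, had values of 0.22, 0.16 and -0.04 and did not pass, SLC25A6 having the highest level per length.

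Other kinases of nucleotides and of creatine complete the lists. Of 7 nucleoside diphosphate kinases, which make triphosphates from diphosphates, NME2 fell with a log2 fold change of -0.26 and NME6 with one of -0.37, and none rose. Among all genes tested, 9.14% fell past the threshold. Neither NME2 nor NME6 passed with limma on log2(RPKM + 1) or log2(RPKM + 0.1). NME2 was called under 8 and NME6 under 7 of the 12 alternatives, and their other losses came when single libraries were left out. NME2 had the highest level of them, at 208.4 ± 7.05 CPM in siNC and 174.5 ± 1.64 CPM in siPRR11 (SD, n = 2 each). NME1, its close paralog, with which reads could be shared, had a log2 fold change of -0.12 and did not pass. None of the 4 other monophosphate kinases passed. GUK1 and DTYMK, which act on GMP and dTMP, had values of 0.21 and 0.27, CMPK1, which acts on CMP and UMP, 0.18, and CMPK2 had too few counts for a narrow estimate (-0.85, standard error 0.844). Of 3 creatine kinases tested none passed, with CKB, the cytosolic brain form, at 0.09.

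AK7 and AK8 belong to tissues with motile cilia, and the genes of such cilia were low in ACHN cells. Of 11 genes tested, FOXJ1, the transcription factor that sets up the motile cilium programme, rose from 0.538 ± 0.0686 CPM in siNC to 1.12 ± 0.159 CPM in siPRR11 (SD, n = 2 each), or by 1.07 on the log2 scale, and RSPH1, a radial spoke protein, fell from 2.94 ± 0.335 to 1.62 ± 0.088 CPM (SD, n = 2 each), its log2 fold change being -0.87. The genes past the threshold were 18.2% of the 11 tested, against 16.7% of all genes tested. FOXJ1 rested on few reads, with 40 and 34 counts in siNC and 116 and 86 in siPRR11. FOXJ1 was called under 9 of the 12 alternatives, with values from 0.25 to 1.20, and RSPH1 under 11. CFAP45, the gene of this list with the highest level per length, had a log2 fold change of -0.24 and did not pass. As markers of ciliated cells, FOXJ1, MCIDAS, DNAI1 and RSPH1 together reached 2.26 and 2.05 RPKM in siNC and 1.90 and 1.78 RPKM in siPRR11, and 3 of the 4 were below 1 RPKM in every library. Their part in the difference of AK7 was not tested.

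**Figure D4:**
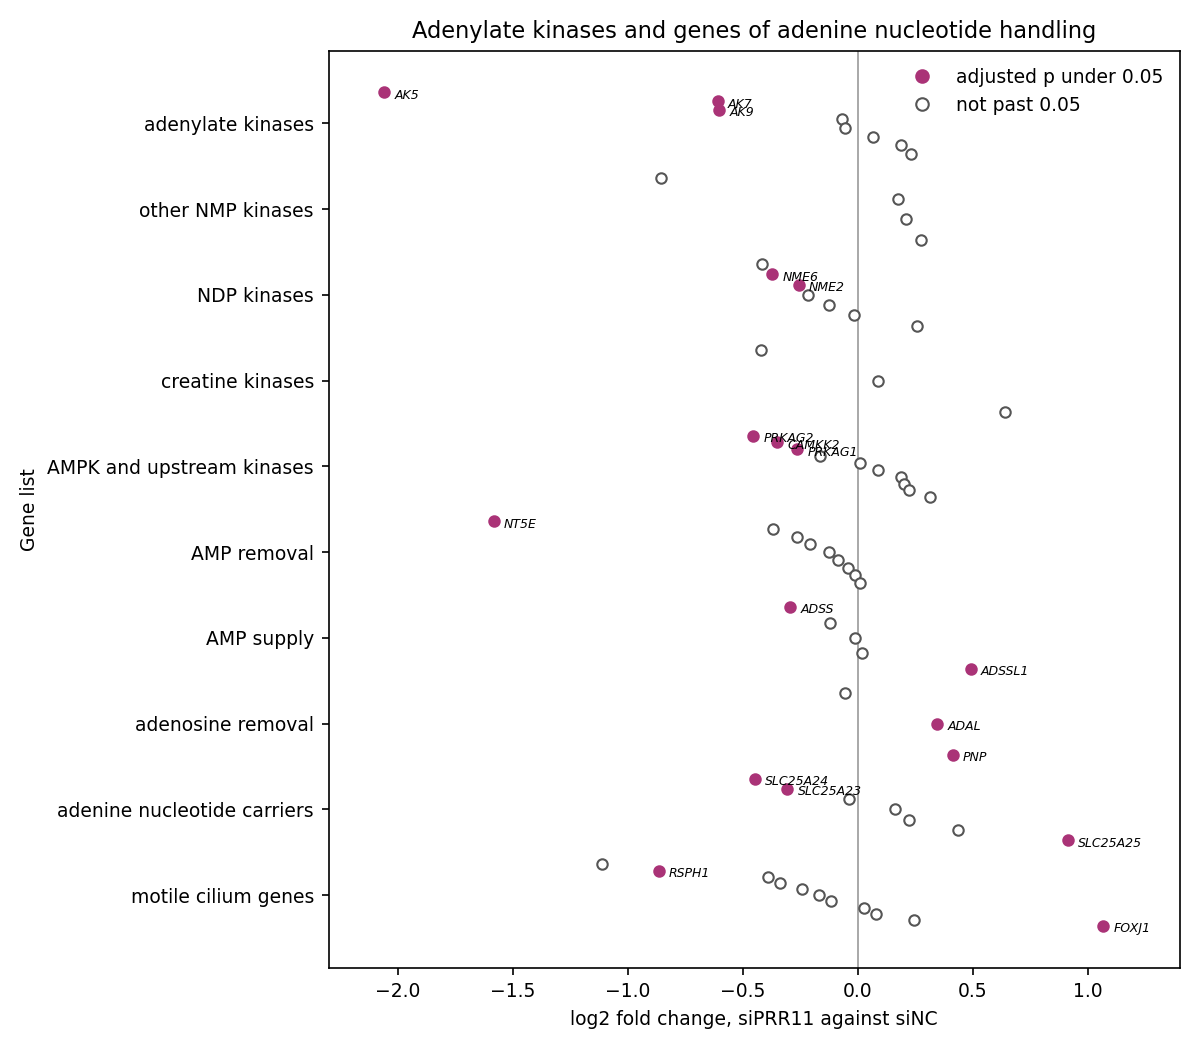
Log2 fold change in siPRR11 against siNC cells of the 8 adenylate kinases and of the 59 related genes tested, grouped by role, with filled points for genes with an adjusted p-value under 0.05 (edgeR's quasi-likelihood test). AK5 at -2.06 and NT5E at -1.58 lie farthest to the left, and FOXJ1 at 1.07 and SLC25A25 at 0.91 lie farthest to the right.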

How the data were processed

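Stranded mRNA libraries of ACHN cells were read on a DNBSEQ-T7 instrument, trimmed (Trimmomatic 0.36 in the submitters' processing notes), aligned to GRCh38 with STAR and counted with featureCounts of Subread 1.5.1. The authors deposited raw counts per gene, without normalization, and, for each gene, an RPKM value, the count over exonic length and column total. Neither the annotation release nor whether counting was strand-specific is given in the sources used here. Groups came from the sample labels. Counts were compared by edgeR's quasi-likelihood test (edgeR 4.0.16, R 4.3.3; TMM, filterByExpr, condition as the only term), with Benjamini-Hochberg adjustment over 21630 genes and a threshold of 0.05. The fits were also run on simulated counts with known changes. Standard errors are the log2 fold change over the square root of F. Alternatives were RLE, DESeq2 1.42.0, the exact test, no filter, 10 counts in every library, a replicate block, limma 3.58.1 with a trend on log2(RPKM + 1) or log2(RPKM + 0.1), each library left out and unadjusted p-values. Members and lists were chosen with earlier results of these data known. ADSS1, ADSS2 and ADA2 were matched as ADSSL1, ADSS and CECR1. Named genes were PRR11, members, their pseudogenes and overlapping genes, neighbours of AK5, the 5 genes closest to it, and, per list, those past the threshold and the highest in siNC. MAP2, PAX8, KRT18, RBFOX3 and related genes named below the threshold were chosen after their values were seen. A further gene of the family is not reported here.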

Additional observations from a re-analysis of the deposited data

How the results depend on the processing

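Against 3622 genes, 3 adenylate kinases and 15 related genes past an adjusted p-value of 0.05, the replicate block gave 6988, 5 and 27, an unadjusted p-value 6553, 5 and 25, limma on log2(RPKM + 1) 1775, 1 and 6, and limma on log2(RPKM + 0.1) 1878, 1 and 4. The 5 adenylate kinases under the block were AK5, AK7, AK9, AK4 and AK6. Of all genes called, 45.4% were higher in siPRR11 cells in the test on counts, and 61.5% and 61.3% in the limma fits. Leaving out each library gave 2172 to 4590 genes, 2 to 3 adenylate kinases and 5 to 17 related genes. These fits assume that the lone library of a group varies like the other group. Over these fits AK1 ranged from -0.049 to 0.19 and AK8 from -0.48 to 0.24, and AK1 changed sign without siNC library 2 (-0.049) and AK8 without siNC library 2 (0.09) and without siPRR11 library 2 (0.24), where the cause was not tested. Samples with the same number deviated together with a correlation of 0.165 over genes, but with 2 pairs the replicate number shows no shared origin, and the block was not used for a call. AK8 has the fewest counts of the family, 32 to 58 per library, and counting error and the spread between its libraries were not separated.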
